A study of Mus musculus with 10 samples.

Results

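The miR-106b to miR-25 cluster is a set of 3 microRNA hairpins that lie in a row inside the mouse gene Mcm7. Its members here are mmu-miR-106b-5p, mmu-miR-93-5p and mmu-miR-25-3p, the mature arms under which the hairpins are usually named. They were taken by name from the deposited table, where they make up 3 of 1340 mature miRNAs, and all 3 had a mean signal of at least 10, as did 588 of the 1340. The libraries are small RNA sequenced from wild-type C57BL/6J mice at P34, and the tissue is the RPE/choroid/sclera, that is the pigment epithelium, the vascular layer and the fibrous coat behind the retina. Per the labels' protocols, the mice had a lens of -20 dioptres over 1 eye for 10 days from P24, a treatment used to induce myopia, and no lens over the other. The 10 libraries are 5 left eyes and 5 right eyes, and each left eye shares a title number (61, 64, 65, 66 or 68) with a right eye. The labels used here do not say which eye wore the lens, so no library is called treated or control. They also do not say that a number stands for 1 animal. The p-values therefore measure the spread of right minus left differences among these libraries, except where the pairing by number is dropped. The tissue label was followed, although the extraction protocol speaks of retinae.

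As background, Mcm7 encodes a subunit of the MCM helicase, which unwinds DNA at replication origins, and its transcription follows E2F factors in dividing cells. The 3 miRNAs are described as cut from the same intronic transcript, which was not measured here. A miRNA recognises its targets mainly through its seed, bases 2 to 8, so miRNAs with a common seed form a family with overlapping targets. miR-106b-5p and miR-93-5p belong to the family of miR-17, known for repressing the cell-cycle inhibitor Cdkn1a, while miR-25-3p belongs to the family of miR-92a, known for repressing the pro-apoptotic gene Bcl2l11.

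In GRCm38 with the GENCODE M21 annotation, Mcm7 (ENSMUSG00000029730.16) lies on the minus strand at chr5:138164583-138172422. The hairpins lie at chr5:138165737-138165818 (Mir106b), chr5:138165523-138165610 (Mir93) and chr5:138165321-138165404 (Mir25), separated by 126 and 118 bases. All 3 are in intron 13 of a coding transcript with 15 exons. Mir93 and Mir25 also fall in exon 1 of a transcript annotated as a retained intron. The mature members lie at chr5:138165787-138165807 (miR-106b-5p), chr5:138165574-138165596 (miR-93-5p) and chr5:138165332-138165353 (miR-25-3p).

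The mature sequences of the members are shown first, followed by their most abundant seed relatives from other loci, because seed and relatedness set which levels can be pooled or confused. They are from RefSeq (GRCm38.p6), written 5′ to 3′ with the seed in capitals:
miR-106b-5p: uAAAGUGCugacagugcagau
miR-93-5p: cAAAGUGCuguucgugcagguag
miR-17-5p: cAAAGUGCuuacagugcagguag
miR-25-3p: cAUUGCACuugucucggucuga
miR-92a-3p: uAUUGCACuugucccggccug
miR-92b-3p: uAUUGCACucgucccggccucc
miR-106b-5p and miR-93-5p had the same base at 16 of 21 compared positions. Counted from the 5′ end, miR-106b-5p differed from miR-17-5p at U1C, G10U and A20G, with 18 of 21 positions shared. miR-93-5p and miR-17-5p shared 19 of 23 positions. Between miR-25-3p and miR-92a-3p, 18 of 21 positions were shared, and the differences were C1U, U14C and U18C. Near-identical relatives can exchange reads, and the sources used here do not give how the authors assigned such reads, so the levels within each seed family carry that uncertainty.

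The hairpins give a second product each, and those opposite arms have seeds of their own. The RefSeq hairpins are shown with both mature arms in capitals, the 5p arm first, because the balance between arms is one of the results:
Mir106b: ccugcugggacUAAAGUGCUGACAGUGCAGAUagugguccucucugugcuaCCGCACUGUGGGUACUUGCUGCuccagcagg
Mir93: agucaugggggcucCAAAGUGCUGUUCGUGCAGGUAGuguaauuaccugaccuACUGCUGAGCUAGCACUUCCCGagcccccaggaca
Mir25: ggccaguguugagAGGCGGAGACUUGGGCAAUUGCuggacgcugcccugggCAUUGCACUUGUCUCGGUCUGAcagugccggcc

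The deposited values are a normalised signal, not reads, so library depth is unknown. The library sums are nearly equal, between 1.18782e+07 and 1.1879e+07, and a miRNA takes a step of signal that goes with its rank. Next to the members, 1 step of rank was worth a median of 3.90% for miR-25-3p, 3.76% for miR-93-5p and 1.39% for miR-106b-5p. The tissue label was checked on miRNAs typical of its cell types. The pigment cell list held 16.5% to 16.7% of the signal, nearly all of it miR-204-5p, which has the same deposited value in every library. It is present as the label would have it, but its constancy is set by its rank and says nothing about pigment cell content. The retina and neuron list, led by miR-182-5p, held 1.59% to 3.99% in 9 libraries and 11.2% in the right eye of number 68. Thus miRNAs typical of neural retina were present throughout. These shares also follow rank, so 11.2% does not measure how much neural retina that library held. Fewer cells of a type and less RNA per cell cannot be told apart in such bulk samples.

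The members kept 1 order in every library. miR-25-3p was highest, with left-eye signals of 10593 (number 61), 10090 (64), 12901 (65), 9430 (66) and 12901 (68). Its right-eye signals in the same order of numbers were 11089, 11089, 14343, 13129 and 13581. Its mean was 11915 ± 1657 (SD, n = 10), and it ranked between 63 and 74 among all miRNAs.

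miR-93-5p came next, at 4107 ± 640 (SD, n = 10), with ranks from 92 to 113. Its left-eye signals were 4367, 4514, 3976, 4256 and 3303 for numbers 61, 64, 65, 66 and 68, and its right-eye signals were 5278, 4514, 3976, 3850 and 3037. Both eyes of number 68 were its lowest libraries.

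miR-106b-5p was the lowest member, at 393 ± 59.7 (SD, n = 10), with ranks from 206 to 234. It had signals of 332, 366, 422, 356 and 494 in the left eyes and 351, 363, 376, 366 and 501 in the right eyes. Both eyes of number 68 were its highest libraries, the reverse of miR-93-5p, and without them its mean was 367 ± 26.1 (SD, n = 8).

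The ranges of the 3 members did not overlap, although all 3 lie in 1 intron. Per library, the signal of miR-25-3p was 2.10 to 4.47 times that of miR-93-5p (median 2.85). miR-93-5p was 6.07 to 15.0 times miR-106b-5p (median 11.3). Adapter ligation and amplification differ between miRNA sequences, and their part in these ratios was not tested. The sum of the 3 lay between 14041 and 18695. Over all libraries it was 0.138% of the signal, and miR-25-3p gave 66.3% to 79.3% of it.

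**Figure D1:**
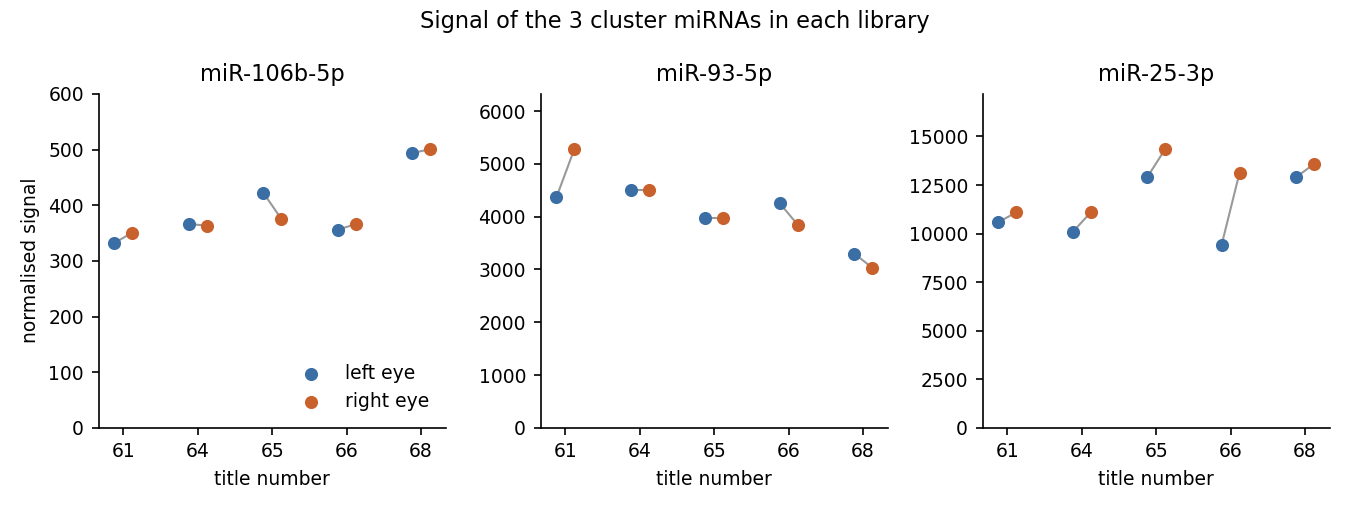
Normalised signal of each member (1 panel each, linear axes from 0 with different scales) by title number, with left and right eyes as points joined by a line. miR-106b-5p is highest and miR-93-5p lowest in number 68, and miR-25-3p is higher in the right eye of each number.

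Right eyes were compared with left eyes to ask whether the members differ between the eyes of a number, which is as close as these labels come to the lens comparison. No member passed the test, limma on log2(signal + 1) over all 588 kept miRNAs with the number as a block, two-sided, at a Benjamini-Hochberg adjusted p of 0.05, which called 0 of 588 miRNAs (0%), with 13 at an unadjusted p under 0.05. The left-eye mean of miR-106b-5p was 394 ± 64.8 and its right-eye mean 391 ± 61.7 (SD, n = 5 each). Its log2 difference was -0.01 (SE 0.09, 95% interval -0.21 to 0.19, limma adjusted p = 0.988), and the right eye was higher in 3 of 5 pairs. Leaving out number 65 turned this difference to 0.03.

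The means of miR-93-5p were 4083 ± 479 on the left and 4131 ± 831 on the right (SD, n = 5 each). Its log2 difference was 0.00 (SE 0.08, 95% interval -0.20 to 0.20, limma adjusted p = 0.995). The right eye was higher in 1 pair, equal in 2 and lower in 2. The higher pair was number 61, by 20.9%, and without it the difference was -0.07.

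miR-25-3p was the member with 1 direction throughout, at 11183 ± 1622 on the left and 12646 ± 1486 on the right (SD, n = 5 each). The right eye was higher in 5 of 5 pairs, a pattern held by 12 of 588 miRNAs (2.04%). The log2 difference was 0.18 (SE 0.08, 95% interval -0.01 to 0.37, limma unadjusted p = 0.0616 and adjusted p = 0.967), which did not pass. The pairs were unequal. Number 66 gave 39.2%, or 8 ranks, while numbers 61, 64, 65 and 68 gave 4.68%, 9.90%, 11.2% and 5.27%, or 1 to 4 ranks. Without number 66 the difference was 0.11. On the fold scale the intervals were 0.865 to 1.14 for miR-106b-5p, 0.872 to 1.15 for miR-93-5p and 0.992 to 1.30 for miR-25-3p.

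**Figure D2:**
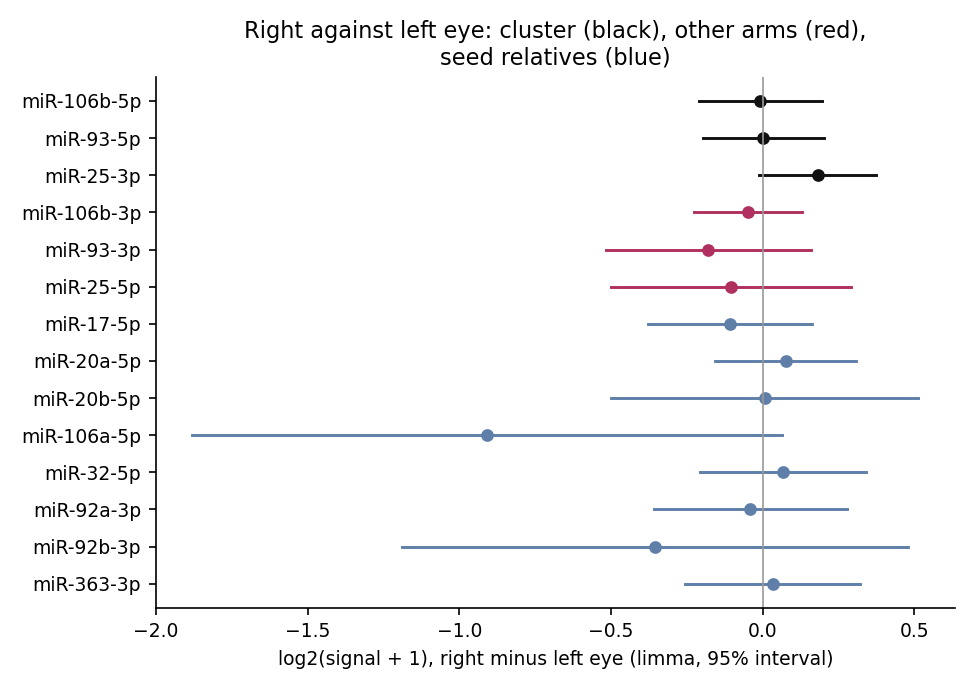
Right minus left log2 difference with its 95% interval from limma for the members (black), the opposite arms (red) and seed relatives (blue), on the log2(signal + 1) scale. The intervals of the 3 members include 0, and that of miR-25-3p reaches from -0.01 to 0.37.

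The ratios between members were compared in the same pairs with an exact two-sided sign-flip permutation test, whose smallest possible p with 5 pairs is 0.0625. The ratio of miR-25-3p to miR-106b-5p was 28.5 ± 2.56 on the left and 32.7 ± 4.38 on the right (SD, n = 5 each), and higher on the right in 4 of 5 pairs (log2 difference 0.19, exact p = 0.125, 0.375 adjusted over 3 ratios). The ratio of miR-25-3p to miR-93-5p was 2.81 ± 0.745 and 3.21 ± 0.947, also higher in 4 of 5 pairs (log2 difference 0.18, exact p = 0.3125, adjusted 0.469). That difference was 0.07 without number 66 and 0.28 without number 61. The third ratio, miR-93-5p to miR-106b-5p, gave a log2 difference of 0.01 (exact p = 0.8125), smaller than the SD of 0.17 between pairs. None of these can pass 0.05 in this design.

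The larger differences lay between numbers, and there the members went opposite ways. The mean of both eyes of a number ran from 341 (number 61) to 497 (number 68) for miR-106b-5p. For miR-93-5p it ran the other way, from 4822 in number 61 to 3170 in number 68. The span of the number means was 0.54 on the log2 scale for miR-106b-5p, against a largest gap of 0.17 between eyes of 1 number. It was 0.60 against 0.27 for miR-93-5p. For miR-25-3p it was 0.36 against 0.48, so its number means did not spread beyond the gap between eyes. A span above the gap was common, with 297 of 588 miRNAs (50.5%), so it does not set these members apart. The ratio of miR-93-5p to miR-106b-5p, 2 members of 1 seed family and 1 intron, had a mean of 14.1 in number 61. It fell through 12.4 (64), 11.2 (66) and 10.0 (65) to 6.38 in number 68. Its values ran from 6.07 to 15.0, a range of 2.48-fold within 1 intron's products. The ratio between the 2 arms of 1 hairpin ranged 1.56-fold at Mir93, 2.23-fold at Mir106b and 2.76-fold at Mir25. A range of this size is thus not particular to these 2 members.

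Over the 10 libraries, miR-106b-5p and miR-93-5p had a Pearson correlation of -0.86 (Spearman -0.79) on the log2 scale. Without both eyes of number 68 it was -0.48 (n = 8), so the opposition rested in part on number 68. After removing the means of side and number it was 0.21. Such a value rests only on the 5 right minus left differences, too few to say where the opposition lay. miR-93-5p and miR-25-3p correlated at -0.63 (-0.55 without number 68, and -0.54 after removing side and number). miR-106b-5p and miR-25-3p correlated at 0.60 (0.54 without number 68, and 0.10 after removing side and number). These are descriptions over libraries that come in pairs and share 1 normalisation.

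**Figure D3:**
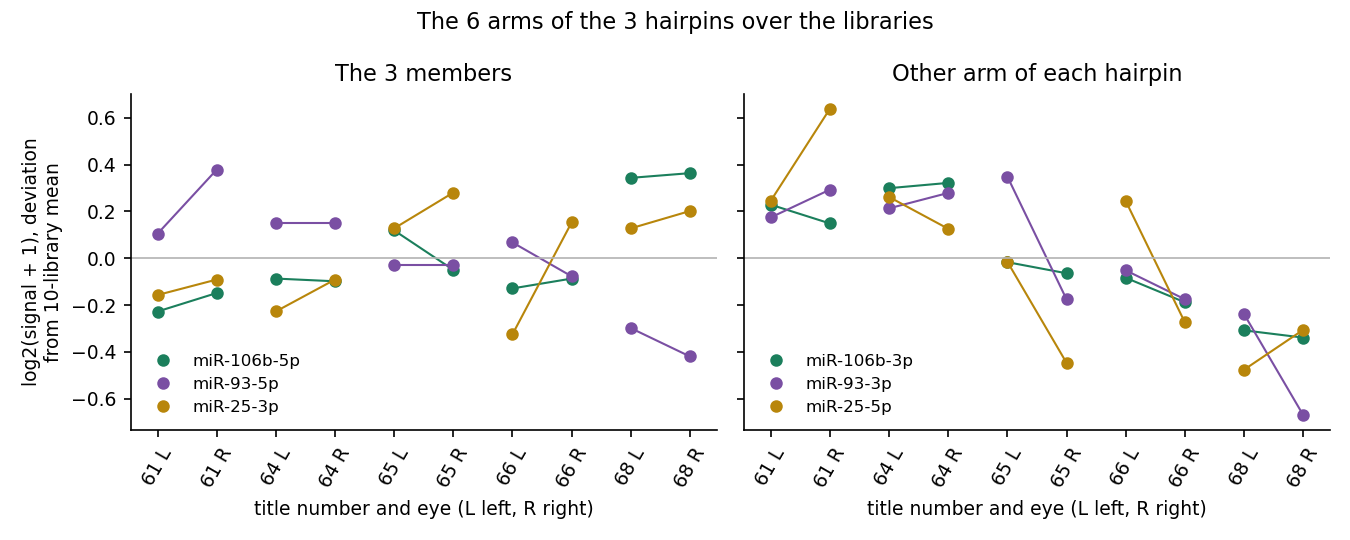
Deviation of each arm's log2 signal from its own mean in the 10 libraries, with lines joining the eyes of a number, for the 3 members and for the opposite arms. In number 68 miR-106b-5p lies above its mean and miR-93-5p below it.

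Several other measures moved with this pattern. The main axis of the libraries, the first principal component of the kept miRNAs computed without the cluster's arms, held 30.9% of the variance. It correlated at 0.79 with miR-106b-5p, 0.80 with miR-25-3p and -0.94 with miR-93-5p, against a median absolute correlation of 0.53 over the other miRNAs. Number 68 had the highest axis score on each side, 0.30 on the left and 0.61 on the right. Correlations with the axis are not given without it, so how far they rest on that number is not known. Base composition ran along the same axis. Across 495 other miRNAs with a RefSeq sequence, the correlation of a miRNA with the axis and its GC percentage were related at Pearson -0.35 and Spearman -0.38, where miRNAs are not independent replicates. GC was 42.9% in miR-106b-5p, 50.0% in miR-25-3p and 52.2% in miR-93-5p. It was 59.1% in miR-93-3p and in miR-25-5p and 63.6% in miR-106b-3p, which correlated with the axis at -0.88, -0.87 and -0.90. The part of GC in the members' opposition was not tested.

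Sums of 8 cell type lists were set beside the members, and those of some other cell types moved with them over the 10 libraries. The 5 retina and neuron miRNAs, all above 0 in every library, had sums that correlated at 0.63 with miR-106b-5p, -0.59 with miR-93-5p and 0.27 with miR-25-3p. Without number 68 these were 0.57, -0.19 and -0.06. The 6 surface epithelium, cornea and lens miRNAs held 0.213% to 2.06% of the signal and correlated at -0.37, 0.62 and -0.72 with the same members (0.01, 0.56 and -0.66 without number 68). For the 2 endothelial arms, 1.67% to 2.88% of the signal, the values were 0.39, -0.55 and 0.72 (0.35, -0.63 and 0.71 without it). The 4 erythroid miRNAs, 0.223% to 0.507%, gave -0.63, 0.60 and -0.36 (-0.42, 0.28 and -0.14 without it). The 6 leukocyte miRNAs, 0.158% to 0.202%, gave 0.22, -0.41 and 0.61 (-0.01, -0.56 and 0.72 without it). Striated muscle miRNAs (4, 0.218% to 0.876%) gave 0.44, -0.31 and 0.37 (0.26, -0.09 and 0.33 without it). Those of fibroblasts and smooth muscle (5, 7.11% to 9.04%) gave 0.29, -0.44 and 0.52 (0.11, -0.63 and 0.65 without it). The pigment cell list, whose sum hardly varies, gave -0.04, -0.13 and 0.21 (0.51, -0.67 and 0.38 without it). All listed markers were above 0 in every library, and their part in the members' levels was not tested.

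The arms of each hairpin were compared next, because only 1 strand of the duplex is usually kept in Argonaute. At Mir106b the arm opposite the member was the higher one. miR-106b-3p had signals of 831, 872, 701, 669 and 572 in the left eyes and 786, 886, 678, 622 and 560 in the right eyes of numbers 61, 64, 65, 66 and 68. Its mean was 718 ± 120 (SD, n = 10), against 393 for miR-106b-5p. It was higher than miR-106b-5p in 10 of 10 libraries, by 1.12 to 2.50 times (median 1.84), and the ranges of the 2 arms did not overlap. miR-106b-5p has near-identical relatives, and the part of read assignment and adapter ligation in this arm ratio was not tested. Ranges without overlap were found at 128 of 158 hairpins with both arms kept (81%), and the 3p arm had the higher mean at 68 of the 158.

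The excess of miR-106b-3p varied by number, with mean ratios of 2.37 (61), 2.41 (64), 1.73 (65), 1.79 (66) and 1.14 (68). In number 68 the arms were close, at 572 against 494 and 560 against 501. At Mir93, miR-93-5p exceeded miR-93-3p (84.2 ± 17.5, SD, n = 10) by 37.8 to 59.0 times, median 49.8. At Mir25, miR-25-3p exceeded miR-25-5p (90.2 ± 23.5, SD, n = 10) by 81.0 to 224 times, median 132. The mir-25 ratio also varied by number, from a mean of 91.4 in number 61 to 199 in number 68. On the log2 scale the arm ratio ranged over 1.16 at Mir106b, 0.63 at Mir93 and 1.46 at Mir25, beside a median of 1.22 over the 158 hairpins.

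**Figure D4:**
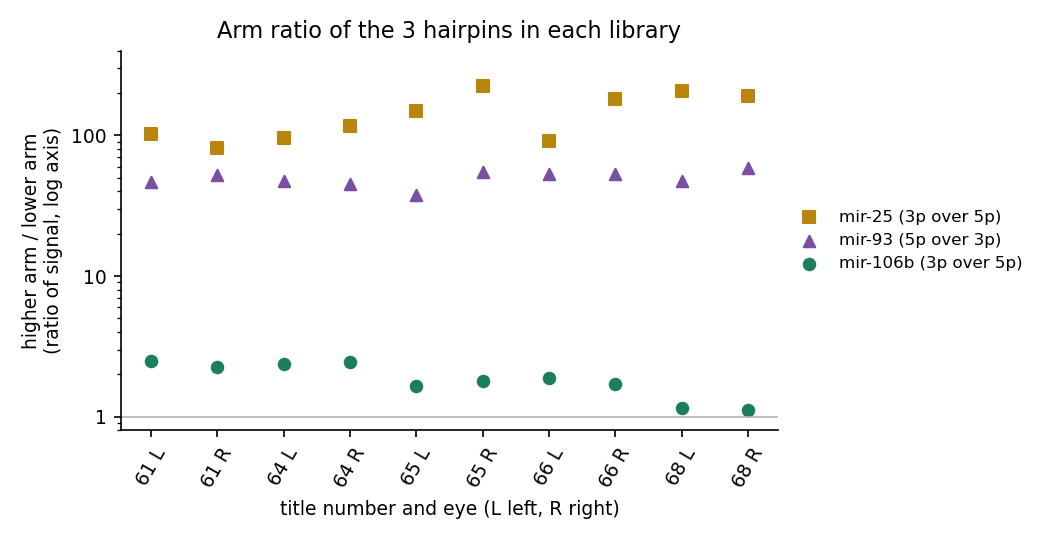
Ratio of the higher to the lower arm at each of the 3 hairpins in each of the 10 libraries (log axis), as 1 point per library. miR-106b-3p exceeds miR-106b-5p by 1.12 to 2.50 times, and the ratios at Mir93 and Mir25 are far larger.

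The arms of a hairpin did not always move together. Arms cut from 1 precursor correlated at -0.74 for mir-106b (-0.34 without number 68), 0.84 for mir-93 (0.58 without it) and -0.80 for mir-25 (-0.77 without it), over 10 libraries. After removing side and number, which leaves only the 5 right minus left differences, the values were -0.29, 0.54 and -0.75. Of 157 hairpins whose arms both varied, 54 (34.4%) had a correlation under 0, and the median was 0.245. miR-93-5p correlated at 0.85 with miR-25-5p (0.89 without number 68, and 0.63 after removing side and number). With miR-106b-3p it correlated at 0.84 (0.65 without number 68), but at -0.08 after removing side and number. The arm ratios were then compared between eyes by limma over 158 hairpins, which called 0 (0%), with 3 at an unadjusted p under 0.05. The log2 difference of the 5p to 3p ratio, right minus left, was 0.04 for mir-106b (95% interval -0.20 to 0.28, adjusted p = 0.974). It was 0.18 for mir-93 (-0.13 to 0.49, adjusted p = 0.934) and -0.29 for mir-25 (-0.78 to 0.21, adjusted p = 0.934). With 1 number left out the mir-25 difference ran from -0.44 (without 61) to -0.11 (without 66), that of mir-93 from 0.09 (without 65) to 0.24 (without 64), and that of mir-106b from 0.01 (without 61) to 0.08 (without 65). The 3 opposite arms had right minus left log2 differences of -0.05 (miR-106b-3p), -0.18 (miR-93-3p) and -0.10 (miR-25-5p), with limma adjusted p = 0.967 for each.

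The place of the members in their seed families was very unequal. In the miR-17 seed family, miR-93-5p gave 69.3% to 80.2% of the summed signal of 4295 to 6583. miR-17-5p, from the paralogous cluster on another chromosome and the member that names the family, gave 9.02% to 13.4%. miR-106b-5p gave 5.33% to 11.7%, and miR-20a-5p 3.51% to 4.98%. miR-20b-5p gave 1.04% to 2.39%. miR-106a-5p gave at most 0.617%. The cluster in Mcm7 thus carried 79.7% to 85.5% of this seed's signal. In number 68 the share of miR-106b-5p was highest, at 10.4% and 11.7%, and that of miR-93-5p lowest, at 69.3% and 70.7%.

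For the seed of miR-25-3p the cluster was the smaller source. miR-92a-3p, from the paralogous clusters, gave 57.6% to 75.1% of a family sum between 50624 and 86963. miR-25-3p gave 11.3% to 25.5% (median 17.2%) and miR-92b-3p 9.23% to 25.8%. miR-363-3p and miR-32-5p reached at most 0.893% and 0.365%. The share of miR-25-3p was 11.3% in the left and 23.8% in the right eye of number 66, where miR-25-3p had 9430 and 13129. In the same eyes miR-92a-3p had 51789 in the left and 35097 in the right, and miR-92b-3p 21427 and 6439. The higher share on the right thus went with more miR-25-3p and less of both others.

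**Figure D5:**
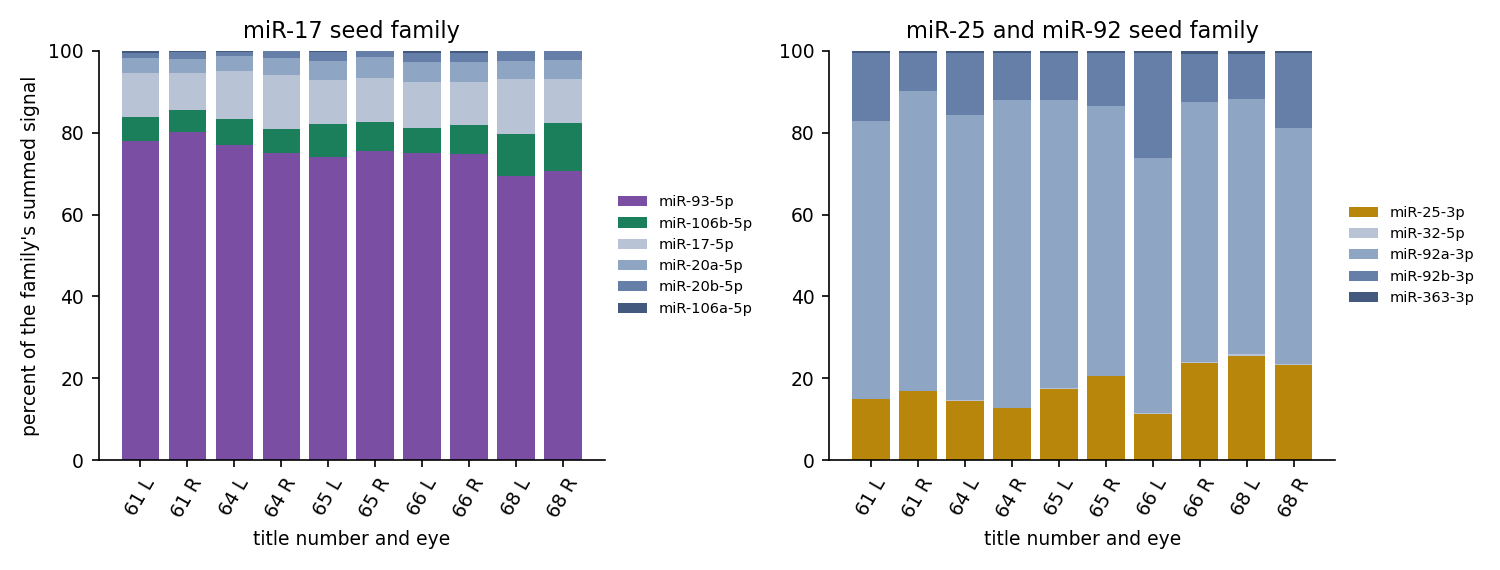
Percentage of the summed signal of each seed family given by each miRNA, in the 10 libraries. miR-93-5p gives 69.3% to 80.2% of the miR-17 seed family, and miR-25-3p gives 11.3% to 25.5% of the miR-25 and miR-92 seed family.

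No relative passed the test between eyes either. Of 6 kept miR-17 seed miRNAs, 3 were higher and 3 lower on the right (median log2 difference -0.00), and 0 were called. Of 5 miR-25 and miR-92 seed miRNAs, 3 were higher and 2 lower (median 0.03), and 0 were called. The paralogous clusters from miR-17 to miR-92a and from miR-106a to miR-363 had 9 of 10 leading arms kept, 4 higher and 5 lower (median -0.04), with 0 called. Over all 588 miRNAs, 319 were higher and 269 lower (median 0.02). None of the 3 list medians held its direction when each number was left out in turn. They ran from -0.094 (without 61) to 0.017 (without 65) for the miR-17 seed family, from -0.0093 (without 65) to 0.12 (without 68) for the miR-25 and miR-92 seed family, and from -0.165 (without 64) to 0.018 (without 66) for the paralogous clusters. In these families miR-106a-5p had the largest difference, at 20.4 ± 9.08 on the left and 13.7 ± 13.2 on the right (SD, n = 5 each). Its log2 difference was -0.91, with an interval of -1.88 to 0.06 (limma adjusted p = 0.967). Its signals, from 3.63 to 31.8 with a mean of 17.0, lay close to the filter of 10, where log2 differences are least steady.

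A second intronic group, the miRNAs of Smc4, was set beside the cluster because Smc4, a condensin subunit, also serves dividing cells. Of the 3 miRNAs listed for it here, all kept, 2 were higher and 1 lower on the right, and 0 were called. miR-16-2-3p had 23.3 ± 7.49 on the left and 32.7 ± 4.50 on the right (SD, n = 5 each) and was higher in 5 of 5 pairs (log2 difference 0.51, limma unadjusted p = 0.0312, adjusted p = 0.967). Of all 588 miRNAs, 12 (2.04%) were higher on the right in all 5 pairs, and 13 had a limma unadjusted p under 0.05. The signals of miR-16-2-3p were low, from 17.4 to 38.8, beside the filter of 10. The most abundant of the 3 listed, miR-15b-5p, had 809 ± 46.0 and 805 ± 73.2.

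The miRNAs with the pattern most like the mean log2 signal of the 3 members, among 584 others over 10 libraries, were miR-380-3p (Pearson 0.85), miR-376a-3p (0.83) and miR-26b-5p (0.80). Without number 68 the values were 0.83, 0.82 and 0.77. This mean joins opposite patterns, and miR-380-3p correlated at 0.77 with miR-106b-5p and 0.88 with miR-25-3p but at -0.67 with miR-93-5p. In the same order the values were 0.69, 0.87 and -0.61 for miR-376a-3p. They were only 0.42, 0.49 and -0.06 for miR-26b-5p, which was thus like the mean more than like any single member. For single members, a comparison added after the values were seen, miR-106b-5p was most like miR-29c-3p (0.94, and 0.70 without number 68). miR-93-5p was most like miR-30b-3p (0.96, and 0.85 without it), and miR-25-3p was most like miR-199b-5p (0.89, and 0.88 without it).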

How the data were processed

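The authors deposited a normalised signal per mature miRNA in 10 libraries. Bowtie, Partek and the build GRCm38 (mm10) are named, per the submitters' processing notes, and the sources used here do not give the normalisation. Only 7.31% of the nonzero signals are whole numbers to within 0.001, so no reads were recovered, count models were not used, and intervals or floors from depth are not given.

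Signals were analysed as log2(signal + 1), a scale that understates changes of low miRNAs, for the 588 miRNAs with a mean of at least 10. Eyes were compared with limma (version 3.58.1, R 4.3.3), fitting a trend of variance on mean and blocking on the title number, and two-sided p-values were adjusted by Benjamini and Hochberg's method over all 588 miRNAs. The 5p to 3p ratios were fitted the same way over 158 hairpins. The fitting code was checked on simulated data with independent noise and planted changes larger than the members' estimates. That check does not show how small a difference the test could detect here. The block follows the protocol's comparison of eyes. As a check of the pairing, left and right eyes of a number, each taken relative to its side, correlated at 0.12, 0.45, 0.01, -0.13 and 0.28 across miRNAs, and for 2 of 5 left eyes the best match was their own number, so these data alone do not establish the pairing.

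All 15 seed family sequences matched RefSeq by name. Members, lists and tests were chosen with earlier results of these data known. Named miRNAs are the members, their other arms, the listed relatives and Smc4 miRNAs, the most abundant miRNA of a cell type list, and the 3 miRNAs most correlated with the members' mean. The 3 most like single members were added after their values were seen. Alternatives were another pseudocount, other filters, ranks, other scaling, no block, and each number left out.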

Additional observations from a re-analysis of the deposited data

Results flagged for a closer look

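miR-106b-5p in the right eye of number 68 had a signal of 500.631, far above the other 4 right eyes, which lay between 351 and 376. The gap to the nearest of them was 0.807 of the range of right eyes on the log2 scale and 0.833 on the untransformed signal, above Dixon's 95% critical value of 0.71. It was the only one among 18 groups checked, the 6 arms and 3 ratios between members on either side, where chance alone flags about 1 in 20. The left eye of the same number had the highest left-eye signal of miR-106b-5p, at 494. The right eye of number 68 is also the library whose retina and neuron miRNAs held 11.2% of the signal, a share that follows rank. The part of that in its miR-106b-5p signal was not tested.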

How the results depend on the processing

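The number of miRNAs past an adjusted p of 0.05 was 0 in all 13 alternative settings, while 6 to 49 had an unadjusted p under 0.05, the most without a filter on low signal. The right minus left log2 difference of miR-25-3p kept its direction in all 13, from 0.07 on log2 ranks to 0.21 without number 61, with limma adjusted p from 0.839 to 1. Without the replicate block it was 0.18 (limma unadjusted p = 0.169, adjusted p = 0.997), and dropping the block changed no call. The near-zero difference of miR-93-5p turned to -0.00078 on log2 ranks. With 1 number left out it ranged from -0.066 (without 61) to 0.038, that of miR-106b-5p from -0.029 to 0.032 (without 65), and the log2 ratio of miR-93-5p to miR-106b-5p from -0.037 (without 61) to 0.058, with -0.030 without 65. The log2 ratio of miR-25-3p to miR-93-5p ranged from 0.069 to 0.277. All 31 refits of the arm ratios of the 3 hairpins kept their direction, but with 1 number left out mir-25 ranged from -0.439 to -0.108, mir-93 from 0.094 to 0.242 and mir-106b from 0.011 to 0.081. The median of the miR-25 and miR-92 seed family was 0.12 without number 68. Hairpins past the adjusted threshold ranged from 0 to 1 with 1 number left out, and the 1, found without number 61, was none of these 3. Filtering at a mean of 100 gave no arm ratio for mir-93 and mir-25, whose lower arms then dropped out. The correlation of miR-93-5p with miR-106b-5p without number 68 (-0.48), and the other values without it, were chosen after the data were seen. Depth is unknown, so sampling error of low arms cannot be separated from the spread between libraries.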
